A study of Mus musculus with 36 samples.

Results

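The hydrolases that release fatty acids from stored lipid, and the coactivator of adipose triglyceride lipase (ATGL), were followed in the liver of mice whose ATGL was removed from adipose tissue only. The genes were Pnpla2, which encodes ATGL itself, Abhd5, Lipe, Mgll, Lipa, Ces1d, Ces1f, Pnpla3, Pnpla7 and Pnpla8. They were taken by symbol from the gene names of the array probes, and all 10 were found among 37325 genes on the array. They carried 17 of 56605 probes. All 10 were among the 24250 genes tested, and in some group 5 or more of the 6 arrays read 16 of their probes well above background.

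Cytosolic lipolysis of a lipid droplet runs in steps. ATGL, switched on by the protein ABHD5 and held back by G0S2, takes the first fatty acid from triacylglycerol, hormone-sensitive lipase (Lipe) acts on the diacylglycerol left over, and monoacylglycerol lipase (Mgll) frees the last fatty acid from glycerol. In hepatocytes, acid lipase (Lipa) does the same work inside lysosomes, and the carboxylesterases Ces1d and Ces1f hydrolyse lipid at the endoplasmic reticulum, where very low density lipoprotein is loaded. Fasting and beta 3 adrenergic agonists both drive lipolysis in fat, and the fatty acids that reach the liver are ligands of the nuclear receptor PPAR alpha.

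RNA from 36 livers of male C57Bl/6J mice was measured on 1-colour Agilent arrays, with 1 array per labelled replicate and 6 arrays in each of 6 groups. Mice labelled AAKO lacked ATGL in white adipose tissue, and mice labelled CTRL were the controls; the Cre driver, the alleles of the controls and the ages are not given in the sources used here. Fed AAKO and fed CTRL mice ate freely, fasted AAKO and fasted CTRL mice went without food for 24 h, and CL316243 AAKO and CTRL mice were fed and received the beta 3 agonist CL316243 at 3 mg/kg by gavage at Zeitgeber time 10, in a carboxymethyl cellulose vehicle. All mice ate standard chow outside the fast and were killed at Zeitgeber time 16. The fed groups belonged to experiment 2 and the other groups to experiment 1, so an effect of fasting or CL316243 against fed mice cannot be told apart from an effect of the experiment, nor, for CL316243, from gavage, for which the labels give no vehicle group. The 2 genotypes, and fasting and CL316243, were compared within 1 experiment. Tests of whether the genotype difference changed from fed mice span both experiments, so the experiment cannot be told apart there either.

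Each level is the log2 signal less the log2 of that array's 75th percentile, and levels of different probes are not compared. Differences are log2 differences with their standard error (SE) from limma over 6 arrays per group, and a gene is called when its p, adjusted over all 24250 genes by the Benjamini-Hochberg method, is under 0.05. The p-values measure the spread between the labelled replicates. In whole liver, fewer cells of a type and less RNA per cell cannot be told apart.

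Between 58.5% and 65.7% of probes were well above background on each array. All 6 hepatocyte markers were well above background on every array, with a mean level between 8.52 and 9.13, which fits the label of liver. Between the genotypes 2 of them were higher and 3 lower in fasted AAKO livers, and 2 were higher after CL316243. Replicate 2 of the fasted CTRL group stood apart, with a score of 81.3 on the first principal component against 16.8 to 29.2 for the other 5 arrays of its group and 103 to 111 for fasted AAKO. The genotype difference of each member called in fasted mice is therefore also given without it. Of 7 adipocyte markers, Lep, Plin1, Cidec and Adrb3 were well above background on all 36 arrays, Retn on 32, Adipoq on 21 and Cfd on 15. Plin1 and Cidec were also among the lipid droplet coat genes described below. Between the genotypes, 1 adipocyte marker was higher and 3 were lower in fasted AAKO livers, 4 of 5 neutrophil markers were higher in fasted AAKO livers, and no Kupffer cell marker of 7 was called in any of the 3 genotype comparisons. Of 5 endothelial markers 2 were higher in AAKO livers both when fasted and after CL316243, of 6 stellate cell markers 2 were higher and 1 lower when fasted, and 1 adipocyte marker was lower after CL316243. Of all genes tested, 49.2% were called between fasted genotypes and 24.5% between genotypes after CL316243. The part of the cell type markers in the results was not tested.

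Each gene was read by short probes, and for 5 of them several probes gave a second opinion. The first 30 bases of the probes that mattered for a call are shown, 5′ to 3′, because Abhd5, Pnpla3 and Lipe had probes that disagreed and because Ces1d and Ces1f are close relatives in 1 gene cluster. Probe positions are on mouse assembly mm9 as the array files give them; exon and UTR annotation of that assembly was not used here.
Abhd5 probe 1: ctttcctttctcctacacagaattaaaata
Abhd5 probe 2: tgccactctgcaacagcttccacatctcct
Abhd5 probe 3: attgggcttcggaagaagtagtagacctaa
Pnpla3 probe 1: gcaaactagtggaacagcagaaggattgaa
Pnpla3 probe 2: tatccagtggctacaatgggcgacatccca
Lipe probe 1: atcctggaaattctgctgcttccccaggca
Lipe probe 2: gaagaagctgacaataaaggacttgagcaa
Mgll probe 1: aattactaaagaagccaatgtgcactacag
Mgll probe 2: tatgatgagctggctcatatgttgaagggg
Ces1d probe 1: aagaaagacctgttccaggacttgatggct
Ces1f probe 1: gttcttccactaacagtgtatgtaaatcca
Abhd5 probes 1 and 3 were designed to its RefSeq mRNA (chr9:122288857-122288916 and chr9:122277200-122277259) and probe 2 to a separate Ensembl transcript (chr9:122268338-122268397). Lipe probe 2 (chr7:26165828-26165887) was designed to the RefSeq mRNA, whereas probe 1 (chr7:26167986-26168045) was designed to a separate cDNA clone. The other probes lay at chr15:84019823-84019882 and chr15:84016440-84016499 for Pnpla3, chr6:88778292-88778351 and chr6:88714636-88714695 for Mgll, chr8:95698949-95699008 for Ces1d and chr8:95780225-95780284 for Ces1f.

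RefSeq promoters on GRCm38.p6 were found for 8 of the 10 genes, 10 promoters in all, with 2 each for Lipe and Mgll. Those of Pnpla2, Mgll (the first of 2), Lipa and Pnpla7 are shown. Of these genes, Pnpla2 was higher, and the other 3 lower, in AAKO than in CTRL livers after fasting and after CL316243. None of the words searched was found in the second Mgll promoter, which is not shown. Each stretch shown runs from 250 bases before the start site through 30 bases from it, on the gene's own strand. Capitals mark matches to the words searched.
Pnpla2 chr7:141454938-141455217 (+): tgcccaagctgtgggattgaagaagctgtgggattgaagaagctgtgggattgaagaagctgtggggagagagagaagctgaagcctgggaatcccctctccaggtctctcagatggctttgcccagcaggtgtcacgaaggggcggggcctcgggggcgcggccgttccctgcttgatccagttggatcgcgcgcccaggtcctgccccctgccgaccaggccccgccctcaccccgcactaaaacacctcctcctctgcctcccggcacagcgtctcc
Mgll chr6:88724162-88724441 (+): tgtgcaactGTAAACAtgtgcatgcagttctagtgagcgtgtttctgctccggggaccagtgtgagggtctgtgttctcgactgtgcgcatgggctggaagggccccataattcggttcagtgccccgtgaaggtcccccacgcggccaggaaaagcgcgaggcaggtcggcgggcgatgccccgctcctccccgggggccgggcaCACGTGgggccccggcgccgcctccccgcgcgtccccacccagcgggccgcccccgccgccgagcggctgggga
Lipa chr19:34527445-34527724 (-): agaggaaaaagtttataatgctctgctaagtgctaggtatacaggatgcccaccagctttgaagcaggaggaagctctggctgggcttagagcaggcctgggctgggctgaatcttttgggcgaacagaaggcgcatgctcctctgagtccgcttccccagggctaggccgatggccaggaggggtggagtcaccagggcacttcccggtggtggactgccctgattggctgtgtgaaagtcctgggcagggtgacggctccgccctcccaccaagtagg
Pnpla7 chr2:24975783-24976062 (+): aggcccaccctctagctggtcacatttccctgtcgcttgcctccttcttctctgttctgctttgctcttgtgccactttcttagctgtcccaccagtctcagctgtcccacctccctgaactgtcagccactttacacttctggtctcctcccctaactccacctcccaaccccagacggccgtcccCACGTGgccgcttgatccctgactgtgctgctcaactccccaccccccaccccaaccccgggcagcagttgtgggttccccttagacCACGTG
The words were searched on both strands in all 300 bases of 32851 promoters. They were the PPAR and RXR direct repeat of AGGTCA spaced by 1 base, TGTTTAC for FoxO factors, CACGTG for the E-box, TCACNCCAC for SREBP and TGACGTCA for CREB. FoxO words were found in 3 of the 10 promoters, 1 each of Pnpla7, Lipe and Mgll, against 3.65% of all promoters. E-boxes were found in 3 of the 10, against 7.15% of all promoters. These were again 1 promoter each of Pnpla7, Lipe and Mgll, but in Lipe not the promoter with the FoxO word. The E-box stood at -44 in Mgll and at -63 and 24 in Pnpla7 relative to the start site. The FoxO word stood at -241 in Mgll, on the opposite strand, and at 35 in Pnpla7, beyond the printed stretch. A CREB word stood at -46 in Pnpla3, against 1.79% of all promoters. No member promoter held the direct repeat, which only 13 of 32851 promoters did (0.0396%), or the SREBP word (1.24%). A match is a description of letters and not a bound site.

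Between fed livers of the 2 genotypes 0 of the 10 genes were called by limma, beside 0.0784% of all genes tested (19 of 24250). An unadjusted p under 0.05 was found for 4 of the 10, beside 1645 of the 24250. The median difference of the 10, AAKO minus CTRL, was -0.10, with -0.00066 for all genes. Pnpla3 came nearest to the threshold. Mgll was 0.26 lower in fed AAKO livers (difference -0.26, SE 0.13, adjusted p = 0.73), although all 6 AAKO arrays lay below all 6 CTRL arrays.

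In fasted mice 7 of the 10 genes were called, 2 higher (Pnpla2 and Pnpla3) and 5 lower (Mgll, Ces1f, Ces1d, Lipa and Pnpla7) in AAKO livers. The share over all genes was 49.2%. The members' median difference was -0.29, with -0.03 for all genes. After CL316243 the members again numbered 7, with Pnpla2 higher and Mgll, Lipa, Ces1f, Ces1d, Pnpla7 and Pnpla8 lower, beside 24.5% of all genes. Their median was -0.43, with 0.03 for all genes.

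**Figure D1:**
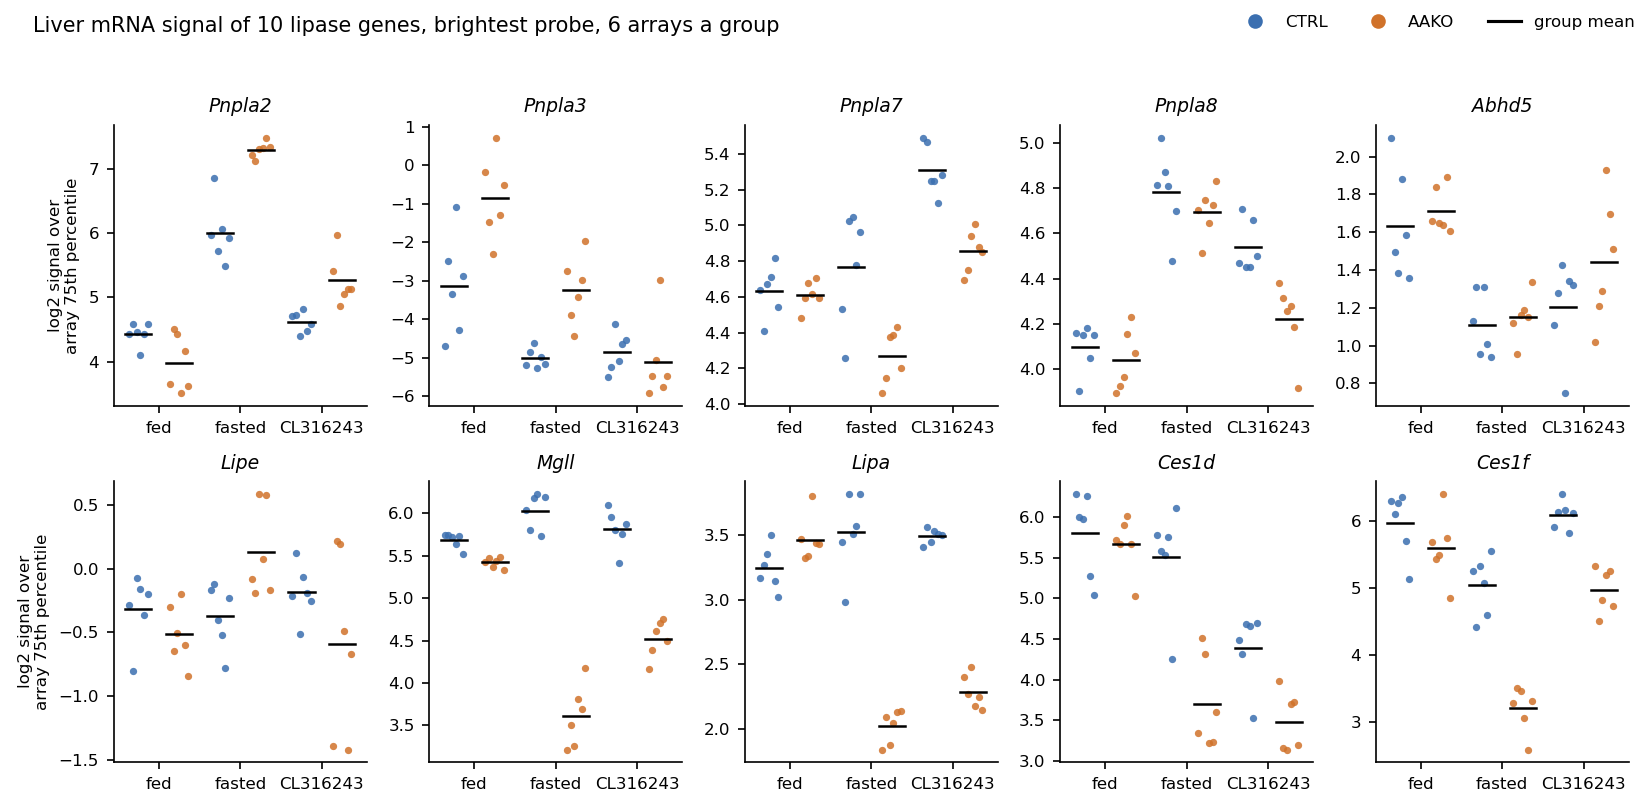
Log2 signal of the probe that stood for each gene, less the log2 of the array's 75th percentile, for 6 arrays in each group (points, CTRL blue and AAKO orange) with the group mean (black line); each panel has its own axis. Pnpla2 is highest in fasted AAKO livers, between 7.12 and 7.48, whereas Mgll, Lipa, Ces1d and Ces1f are low there.

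Pnpla2, the gene deleted in fat, was read in liver by a single probe (chr7:148645928-148645987) that was well above background on all 36 arrays, and this checks nothing about the deletion in adipose tissue. Fed CTRL livers ran from 4.10 through a median of 4.45 to 4.58, and fed AAKO livers from 3.50 through 3.90 to 4.51. After the fast CTRL livers ran from 5.49 through 5.95 to 6.86 and AAKO livers from 7.12 through 7.32 to 7.48. Every fasted array lay above every fed array, and every fasted AAKO array above every fasted CTRL array. After CL316243 CTRL livers ran from 4.40 through 4.64 to 4.82 and AAKO livers from 4.87 through 5.13 to 5.97, again without overlap.

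Fasting raised Pnpla2 by 1.57 (SE 0.19, adjusted p = 3.35e-08) in CTRL livers, a 2.97-fold change. Without replicate 2 of fasted CTRL this log2 difference was 1.397. In AAKO livers fasting raised Pnpla2 by 3.32 (SE 0.19, adjusted p = 8.66e-16). The genotypes differed by 1.30 (SE 0.19, 2.45-fold, adjusted p = 8.25e-07) when fasted, and by 1.47 without replicate 2 of the fasted CTRL group, whose level of 6.86 was the highest of its group. CL316243 raised Pnpla2 by 1.29 (SE 0.19, adjusted p = 3.22e-06) in AAKO livers, whereas the change in CTRL livers was 0.18 (SE 0.19, adjusted p = 0.53). The difference between genotypes after CL316243 was 0.65 (SE 0.19, 1.57-fold, adjusted p = 0.0104). It was 0.74 within wash batch 1 and 0.40 (adjusted p = 0.433) within wash batch 2, where the call was lost. The CL316243 AAKO group had 4 arrays in wash batch 1 and only 2 in wash batch 2, whereas each other group had 3 in each. The change with genotype itself was called, at 1.75 (SE 0.26, adjusted p = 5.33e-06) for fasting and 1.103 (SE 0.26, adjusted p = 0.00523) for CL316243, the latter lost within each wash batch. In descending order the groups were fasted AAKO, fasted CTRL, CL316243 AAKO, CL316243 CTRL, fed CTRL and fed AAKO, and the neighbours overlapped except fasted AAKO with fasted CTRL and CL316243 AAKO with CL316243 CTRL. Beside this, the mean level of the 7 adipocyte markers ran from -2.17 to -0.72 in fasted CTRL livers and from -2.67 to -2.20 in fasted AAKO livers. In the other groups it ran from -2.56 to -1.90 (fed CTRL), -3.05 to -2.03 (fed AAKO), -2.67 to -1.78 (CL316243 CTRL) and -2.77 to -1.74 (CL316243 AAKO), and its part in the Pnpla2 result was not tested.

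Abhd5, whose protein is the coactivator of ATGL, was called in neither genotype comparison of stimulated livers by the probe that stood for it, and its probes disagreed. Probe 1 ran from 1.36 to 2.10 in fed CTRL, 1.61 to 1.89 in fed AAKO, 0.94 to 1.31 in fasted CTRL and 0.96 to 1.33 in fasted AAKO livers. All fasted arrays of a genotype were below all fed ones. Fasting lowered probe 1 by a log2 difference of -0.52 (SE 0.13, adjusted p = 0.00119) in CTRL and -0.56 (SE 0.13, adjusted p = 2.92e-04) in AAKO livers, the former lost within wash batch 2 (-0.43, adjusted p = 0.0948). Probe 3, on the same mRNA, gave -0.67 in both genotypes (adjusted p = 4.90e-05 and 2.10e-05). Probe 2, on the separate transcript, went the other way, with 0.40 (adjusted p = 0.0112) in CTRL and 0.65 (adjusted p = 4.25e-05) in AAKO livers. Between genotypes, probe 1 differed by 0.04 (95% interval -0.22 to 0.30) when fasted and by 0.26 (95% interval -0.0049 to 0.52) after CL316243, neither of which was called. Probe 2 was called higher in fasted AAKO livers (0.44, adjusted p = 0.00438), and probe 3 in CL316243 AAKO livers (0.38, adjusted p = 0.0265). The groups of probe 1 ran from fed AAKO at the top through fed CTRL, CL316243 AAKO, CL316243 CTRL and fasted AAKO to fasted CTRL, and every pair of neighbours overlapped.

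Lipe encodes hormone-sensitive lipase, whose main site is fat. Probe 2, on the RefSeq mRNA, ran from -2.91 through -2.70 to -2.64 in fasted CTRL and from -2.41 through -2.17 to -1.89 in fasted AAKO livers, without overlap. It was higher in fasted AAKO livers by 0.55 (SE 0.13, adjusted p = 6.20e-04) and lower in CL316243 AAKO livers by a difference of -0.46 (SE 0.13, adjusted p = 0.00935), so the sign of the genotype difference turned with the stimulus. The test of that turn gave 1.01 (SE 0.18, adjusted p = 7.52e-05). Probe 1, which stood for the gene in the counts, had the same signs. It gave 0.50 (SE 0.22, adjusted p = 0.0544) when fasted and -0.39 (SE 0.22, adjusted p = 0.197) after CL316243, neither called, with the turn called at 0.90 (SE 0.31, adjusted p = 0.0246). This last call was lost within each wash batch, with only the groups compared in the fit, and without replicate 3 of fasted AAKO or replicate 1 or 5 of CL316243 AAKO. Fasting raised probe 1 by 0.65 (SE 0.22, adjusted p = 0.0099) and probe 2 by 0.90 (SE 0.13, adjusted p = 3.00e-07) in AAKO livers, and neither probe was called in CTRL livers. The probe 1 call was lost within wash batch 1 (0.51, adjusted p = 0.25). Probe 3 was not well above background on any array. From fasted AAKO at the top, the group means of probe 1 ran through CL316243 CTRL, fed CTRL, fasted CTRL and fed AAKO to CL316243 AAKO, with all neighbours overlapping.

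Mgll, the monoacylglycerol lipase, showed the widest fall between genotypes of the 10 genes. Probe 1 ran from 5.73 through 6.11 to 6.23 in fasted CTRL livers and from 3.21 through 3.60 to 4.17 in fasted AAKO livers. After CL316243 it ran from 5.42 through 5.84 to 6.10 in CTRL and from 4.17 through 4.55 to 4.75 in AAKO livers. Neither pair of groups overlapped. The fed groups, at 5.52 through 5.72 to 5.74 in CTRL and 5.33 through 5.43 to 5.49 in AAKO, did not overlap either, but were not called.

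The genotype difference of Mgll was -2.42 (SE 0.13, adjusted p = 1.84e-15) when fasted, a 5.35-fold lower signal in AAKO livers, and -1.29 (SE 0.13, 2.45-fold, adjusted p = 8.86e-09) after CL316243. Probe 2 gave -2.52 and -1.37. Without replicate 2 of fasted CTRL the fasted difference was -2.47, and within wash batches 1 and 2 it was -2.39 and -2.45. In CTRL livers fasting left Mgll 0.35 higher (SE 0.13, adjusted p = 0.0258), a call that probe 2 did not make (0.28, adjusted p = 0.17). It was lost within each wash batch, with the median over probes, and without replicate 6 of fed CTRL or replicate 3, 4 or 6 of fasted CTRL. In AAKO livers fasting gave -1.81 (SE 0.13, adjusted p = 1.02e-13). CL316243 gave 0.14 (SE 0.13, adjusted p = 0.493) in CTRL and -0.89 (SE 0.13, adjusted p = 2.42e-06) in AAKO livers. The genotype difference was wider when fasted than after CL316243, by -1.13 (SE 0.18, adjusted p = 1.34e-05). From the top the groups were fasted CTRL, CL316243 CTRL, fed CTRL, fed AAKO, CL316243 AAKO and fasted AAKO; fed CTRL and fed AAKO did not overlap, nor did fed AAKO and CL316243 AAKO, and the other neighbours did.

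Lipa, the acid lipase of lysosomes, fell in AAKO livers under both stimuli. Its probe (chr19:34567717-34567776) ran from 2.98 through 3.54 to 3.82 in fasted CTRL and from 1.84 through 2.07 to 2.14 in fasted AAKO livers. After CL316243 it ran from 3.40 through 3.51 to 3.56 in CTRL and from 2.14 through 2.26 to 2.48 in AAKO livers. The genotypes did not overlap in either condition. Fed livers lay at 3.02 through 3.22 to 3.50 in CTRL and 3.32 through 3.44 to 3.80 in AAKO, which overlapped.

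The genotype difference of Lipa was -1.50 (SE 0.10, 2.83-fold, adjusted p = 9.99e-14) when fasted and -1.23 (SE 0.10, 2.34-fold, adjusted p = 1.65e-10) after CL316243. It was -1.60 in fasted mice without replicate 2 of CTRL, -1.70 within wash batch 1 and -1.30 within wash batch 2. Fasting raised Lipa by 0.28 (SE 0.10, adjusted p = 0.0161) in CTRL livers, a call lost within wash batch 2 and without replicate 3 or 6 of fasted CTRL, and gave -1.44 (SE 0.10, adjusted p = 2.67e-14) in AAKO livers. CL316243 gave 0.25 (SE 0.10, adjusted p = 0.055) in CTRL and -1.20 (SE 0.10, adjusted p = 8.97e-11) in AAKO livers. The genotype difference of Lipa was not called as wider under one stimulus than the other (-0.27, 95% interval -0.55 to 0.0042, adjusted p = 0.128). The groups ran from fasted CTRL through CL316243 CTRL, fed AAKO and fed CTRL, which overlapped in turn, to CL316243 AAKO and then fasted AAKO, each clear of its neighbours. Lipa is also active in macrophages. The mean level of the 7 Kupffer cell markers ran from 0.80 to 2.58 in fasted CTRL and from 0.20 to 2.48 in fasted AAKO livers, and 0 of the 7 were called between genotypes there or after CL316243. Against fed livers, 3 of the 7 were lower after the fast in CTRL (median -0.71) and 4 in AAKO (median -0.81), and 4 in CTRL (median -0.79) and 6 in AAKO (median -1.21) after CL316243. Of all genes, 43.8% in CTRL and 63.6% in AAKO livers were called with fasting, and 23.1% and 31.4% with CL316243. The part of the Kupffer cell markers in the Lipa responses was not tested.

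Ces1d and Ces1f encode carboxylesterases that act on triacylglycerol and cholesteryl ester in hepatocytes. Ces1f ran from 4.42 through 5.16 to 5.56 in fasted CTRL and from 2.58 through 3.29 to 3.50 in fasted AAKO livers. After CL316243 it ran from 5.82 through 6.13 to 6.40 in CTRL and from 4.50 through 5.00 to 5.33 in AAKO livers. The genotypes did not overlap in either condition. The difference was -1.84 (SE 0.21, 3.58-fold, adjusted p = 1.39e-08) when fasted, -1.94 without replicate 2 of fasted CTRL, and -1.17 (SE 0.21, adjusted p = 9.88e-05) after CL316243, where wash batch 2 alone gave -1.14 (adjusted p = 0.0732). Fasting lowered Ces1f in both genotypes, by a difference of -0.94 (SE 0.21, adjusted p = 4.61e-04) in CTRL and -2.40 (SE 0.21, adjusted p = 1.49e-11) in AAKO livers, the CTRL call being lost within wash batch 2 (-0.80, adjusted p = 0.0707), and the 2 responses differed by -1.46 (SE 0.30, adjusted p = 2.67e-04). CL316243 left CTRL livers at 0.11 (SE 0.21, adjusted p = 0.756) from the fed level, and gave -0.68 (SE 0.21, adjusted p = 0.0138) in AAKO livers, a call lost within wash batch 2 and without replicate 4 of fed AAKO. Its groups ran from CL316243 CTRL through fed CTRL, fed AAKO, fasted CTRL and CL316243 AAKO, each overlapping the next, to fasted AAKO, which stood clear.

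Ces1d fell with CL316243 in the livers of both genotypes. It ran from 5.04 through 5.98 to 6.28 in fed CTRL, 4.26 through 5.66 to 6.11 in fasted CTRL and 3.52 through 4.57 to 4.70 in CL316243 CTRL livers. In AAKO livers it ran from 5.02 through 5.69 to 6.02 when fed, 3.22 through 3.48 to 4.51 when fasted and 3.14 through 3.45 to 3.98 after CL316243. The genotypes overlapped under both stimuli, because replicate 5 of the CTRL group was low each time. In CTRL livers CL316243 lowered Ces1d by a difference of -1.41 (SE 0.27, adjusted p = 3.12e-04) while fasting gave -0.30 (SE 0.27, adjusted p = 0.403), and fasted livers were directly 1.11 above CL316243 livers (SE 0.27, adjusted p = 0.00168). The first call was lost within wash batch 2 (-0.91, adjusted p = 0.0625) and the direct one within wash batch 1 (1.14, adjusted p = 0.0579). Ces1f in the same livers showed the opposite sign in that direct comparison, -1.06 (SE 0.21, adjusted p = 1.56e-04). The genotype difference of Ces1d was -1.80 (SE 0.27, adjusted p = 2.13e-06) when fasted and -0.94 (SE 0.28, adjusted p = 0.0118) after CL316243. Without replicate 2 of fasted CTRL the first was -1.76. Within wash batches 1 and 2 the values were -1.16 and -2.44 when fasted, and -0.65 (adjusted p = 0.284) and -1.20 after CL316243. Its groups ran from fed CTRL through fed AAKO, fasted CTRL, CL316243 CTRL and fasted AAKO to CL316243 AAKO, all neighbours overlapping. Both genes belong to a cluster of similar sequences, and how much either probe also binds transcripts of the other was not tested.

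Pnpla3, a lipid droplet protein of the ATGL family that is driven by feeding, had the largest SE of the 10 genes. Probe 1 ran from -4.69 through -3.11 to -1.09 in fed CTRL and from -2.31 through -0.91 to 0.71 in fed AAKO livers. It was well above background on 4 of 6 fasted CTRL, 6 of 6 fasted AAKO, 3 of 6 CL316243 CTRL and 1 of 6 CL316243 AAKO arrays, so its lowest levels there are near the limit of the array. Fasting gave -1.88 (SE 0.52, adjusted p = 0.00365) in CTRL and -2.40 (SE 0.52, adjusted p = 1.64e-04) in AAKO livers. Probe 2 gave -1.04 (adjusted p = 0.00338) and -1.57 (adjusted p = 1.48e-05), so both probes fell with fasting in both genotypes. Within wash batch 2 the probe 1 call in CTRL was lost (-1.15, adjusted p = 0.142).

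In other comparisons the Pnpla3 probes differed. After CL316243 probe 1 gave -1.73 (adjusted p = 0.0152) in CTRL and -4.25 (SE 0.52, adjusted p = 2.22e-07) in AAKO livers, where probe 2 gave 0.19 (adjusted p = 0.692) and 0.33 (adjusted p = 0.417). Probe 1 was well above background on only 3 of 6 and 1 of 6 of these arrays, and the sizes moved with the processing. The AAKO value was -1.53 with another background correction (normexp), -2.57 in the authors' deposited values and -1.96 as the median over probes. The CTRL call was lost under 5 of 48 alternatives, with -0.46 (adjusted p = 0.164) by normexp. Fasted AAKO livers stood above CL316243 AAKO livers by 1.85 (SE 0.52, adjusted p = 0.00288) on probe 1 and below them by a difference of -1.90 (SE 0.29, adjusted p = 9.00e-07) on probe 2. The probe 1 call was lost with normexp (0.23, adjusted p = 0.382) and within wash batch 2, and the median over probes reversed the value to -0.027. In CTRL livers the same comparison gave -0.15 (adjusted p = 0.848) on probe 1 and -1.23 (adjusted p = 9.03e-04) on probe 2. Between fasted genotypes probe 1 was higher in AAKO livers by 1.76 (SE 0.52, adjusted p = 0.00538), from a range of -5.27 to -4.60 in CTRL to -4.44 to -1.97 in AAKO, and probe 2 differed by 0.08 (SE 0.29, adjusted p = 0.849). With normexp that difference was 0.38 (adjusted p = 0.185), without replicate 2 of fasted CTRL it was 1.79, within wash batch 1 it was 1.48 (adjusted p = 0.114), and it was 0.84 (adjusted p = 0.0311) in the authors' deposited values. In fed livers probe 1 was higher in AAKO by 2.29 (SE 0.52, adjusted p = 0.0919), which was not called in the fit reported and was called under 5 of 48 alternatives. Its groups ran from fed AAKO through fed CTRL, fasted AAKO, CL316243 CTRL and fasted CTRL to CL316243 AAKO, all neighbours overlapping.

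**Figure D2:**
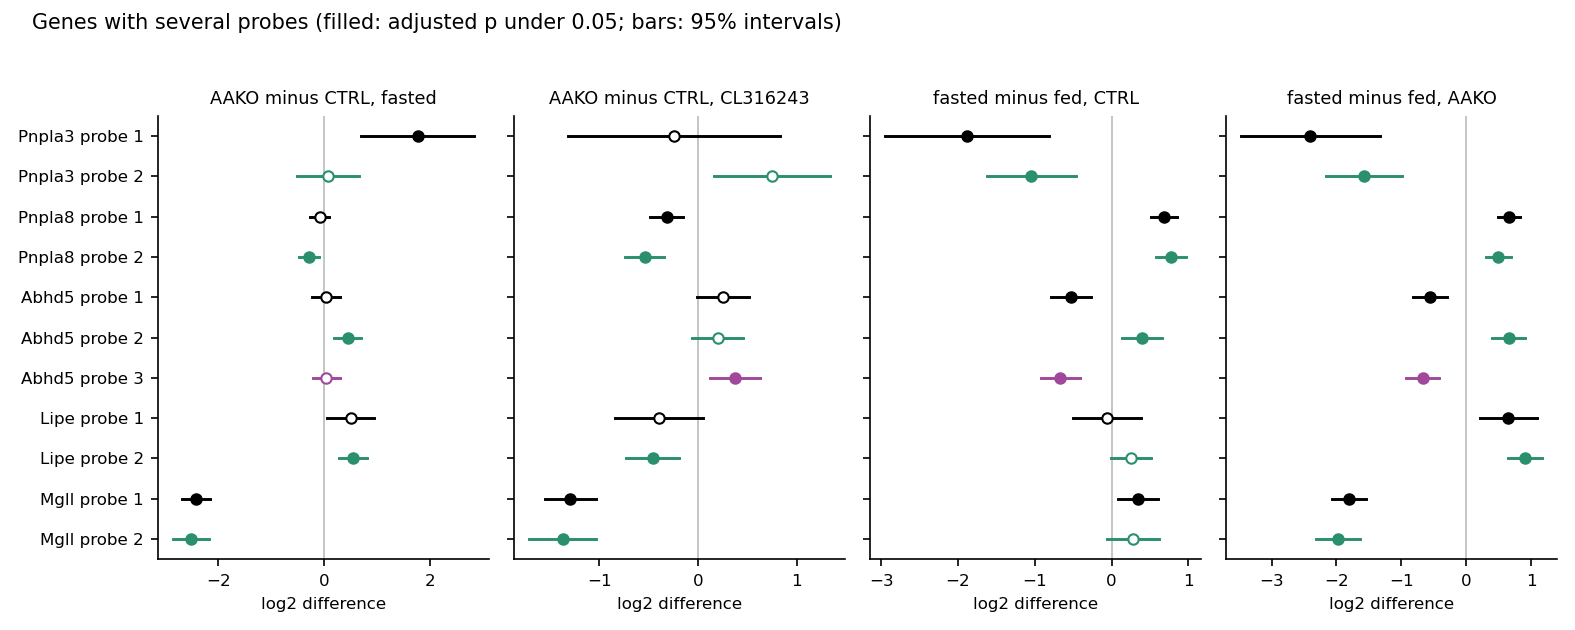
Log2 differences with 95% intervals for each tested probe of the 5 genes with several probes, by comparison; filled points have an adjusted p under 0.05. Abhd5 probe 2 lies right of 0 after fasting (0.40 and 0.65) where probes 1 and 3 lie left, and Pnpla3 probes part between fasted genotypes (1.76 and 0.08), whereas the probes of Mgll lie together.

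Pnpla7 and Pnpla8 act mainly on phospholipids, the former as a lysophospholipase and the latter as a calcium-independent phospholipase of mitochondria and peroxisomes. Pnpla7 (chr2:24908961-24909192) ran from 4.26 through 4.87 to 5.05 in fasted CTRL, 4.06 through 4.29 to 4.43 in fasted AAKO, 5.13 through 5.27 to 5.49 in CL316243 CTRL and 4.70 through 4.86 to 5.01 in CL316243 AAKO livers. The genotypes overlapped when fasted and not after CL316243. AAKO livers were lower by a difference of -0.50 (SE 0.10, adjusted p = 1.41e-04) when fasted, -0.60 without replicate 2 of CTRL, and -0.46 (SE 0.10, adjusted p = 0.0012) after CL316243. Within wash batch 2 neither was called (-0.32, adjusted p = 0.164, and -0.36, adjusted p = 0.287). CL316243 raised Pnpla7 by 0.68 (SE 0.10, adjusted p = 1.32e-05) in CTRL livers, with 0.24 (adjusted p = 0.0753) in AAKO livers. Fasting gave 0.14 (adjusted p = 0.303) in CTRL and -0.34 (adjusted p = 0.00418) in AAKO livers, where the call was lost with quantile normalization (-0.19, adjusted p = 0.101), in the authors' deposited values (-0.20, adjusted p = 0.0966) and within wash batch 2 (-0.26, adjusted p = 0.209). The groups ran from CL316243 CTRL, clear of the rest, through CL316243 AAKO, fasted CTRL, fed CTRL and fed AAKO, each overlapping the next, to fasted AAKO, which did not overlap fed AAKO but did overlap fasted CTRL.

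Pnpla8 rose with fasting in both genotypes. Probe 1 (chr12:45412990-45413049) ran from 3.90 through 4.15 to 4.18 in fed CTRL, 4.48 through 4.81 to 5.02 in fasted CTRL, 3.89 through 4.02 to 4.23 in fed AAKO and 4.51 through 4.72 to 4.83 in fasted AAKO livers. Every fasted array lay above every fed array. The rise was 0.68 (SE 0.08, adjusted p = 5.77e-08) in CTRL and 0.65 (SE 0.08, adjusted p = 3.64e-08) in AAKO livers, and their difference was not called (95% interval -0.27 to 0.21). After CL316243 CTRL livers rose by 0.44 (SE 0.08, adjusted p = 2.28e-04), AAKO livers gave 0.18 (adjusted p = 0.0992), and AAKO was lower than CTRL by a difference of -0.32 (SE 0.08, adjusted p = 0.00518). That call was lost within each wash batch (-0.41 and -0.21). Probe 2 (chr12:45383758-45383817) gave -0.54 (SE 0.09, adjusted p = 7.50e-05) for the same comparison. It was also called between fasted genotypes (-0.29, adjusted p = 0.0113), which probe 1 was not (-0.09, 95% interval -0.26 to 0.08). The groups of probe 1 ran from fasted CTRL through fasted AAKO and CL316243 CTRL to CL316243 AAKO, fed CTRL and fed AAKO, and only CL316243 CTRL and CL316243 AAKO failed to overlap among neighbours.

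**Figure D3:**
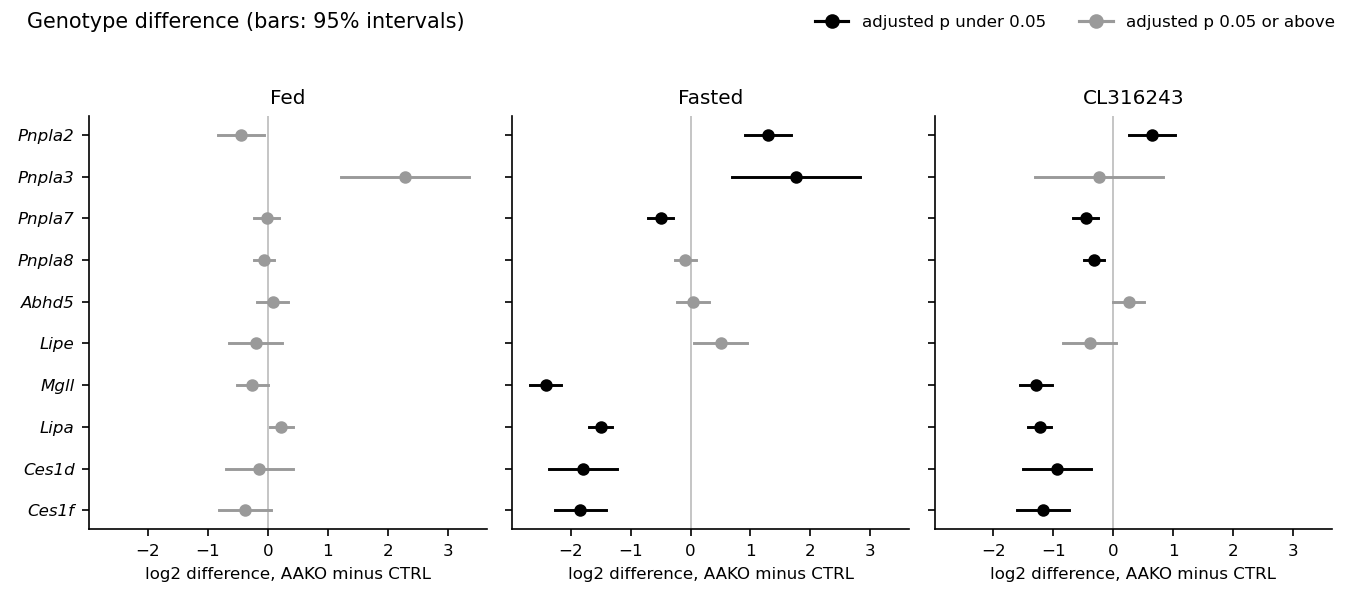
Log2 difference between genotypes, AAKO minus CTRL, of the probe that stood for each gene in fed, fasted and CL316243 livers, with 95% intervals; black points have an adjusted p under 0.05. No gene is black in the fed panel, 7 are in the fasted panel and 7 in the CL316243 panel, where Pnpla2 (0.65) is the only one above 0.

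The responses of the 2 genotypes can be set side by side, although all comparisons with fed mice of a genotype share its fed arrays. Fasting called 7 of the 10 genes in CTRL livers (4 higher, 3 lower), beside 43.8% of all genes, and 10 in AAKO livers (3 higher, 7 lower), beside 63.6%. The median response of the members was 0.04 in CTRL and -1.003 in AAKO livers, with -0.05 and -0.10 for all genes. Mgll and Lipa were called in opposite directions, higher in fasted CTRL and lower in fasted AAKO livers. The call in CTRL livers was lost under 7 of 48 alternatives for Mgll, whose probe 2 was not called, and under 3 for Lipa. CL316243 called 5 genes in CTRL livers (Pnpla7 and Pnpla8 higher, Pnpla3, Abhd5 and Ces1d lower), beside 23.1%, and 6 in AAKO livers (Pnpla2 higher, Pnpla3, Mgll, Lipa, Ces1d and Ces1f lower), beside 31.4%. In CTRL livers the Abhd5 call and the Pnpla3 call were each lost with the sign kept under 5 of 48 alternatives. The median over probes also reversed the Abhd5 value, to 0.063. Abhd5 probe 2 gave 0.08 (adjusted p = 0.688) and probe 3 gave -0.70 (adjusted p = 1.02e-04).

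The difference of the responses was tested directly. Against fed mice this difference spans experiments 1 and 2, and cannot be told apart from a genotype difference that changed with the experiment. For fasting it was called for 6 of the 10 genes, beside 33.6% of all genes: Pnpla2 responded more upward in AAKO livers and Mgll, Lipa, Ces1d, Ces1f and Pnpla7 more downward. For CL316243 it was called for 5, beside 10.8%: Pnpla2 upward, and Lipa (-1.45, SE 0.13, adjusted p = 7.73e-08), Mgll (-1.03, SE 0.18, adjusted p = 2.13e-04), Pnpla3 (-2.53, SE 0.74, adjusted p = 0.0228) and Pnpla7 downward. The Mgll value was -0.99 (adjusted p = 0.0963) within wash batch 1, where the call was lost, and the Pnpla3 probes differed, with 0.14 (adjusted p = 0.888) on probe 2. Pnpla8 was called for CL316243 on probe 2 (-0.53, adjusted p = 0.00786) and not on probe 1 (-0.26, adjusted p = 0.179). Lipe was called for fasting on probe 2 (0.65, adjusted p = 0.00608) and not on probe 1 (0.70, adjusted p = 0.0762). The Pnpla7 value of -0.44 had an adjusted p of 0.0481 and was lost under 30 of 48 alternatives, and that of Pnpla3 under 6. The Ces1d value for fasting (-1.66, SE 0.39, adjusted p = 0.00118) was lost within wash batch 1, and the Pnpla7 value for fasting within wash batch 2 (-0.21, adjusted p = 0.604). The genotype difference itself was called as changed between fasting and CL316243 for 3 genes, Mgll, Lipe and Pnpla3 (2.01, SE 0.74, adjusted p = 0.0366), beside 31.8% of all genes. The Pnpla3 value was lost under 18 of 48 alternatives, and its probe 2 had the opposite sign (-0.67, SE 0.41, adjusted p = 0.216). Without replicate 2 of fasted CTRL the count of 3 became 6.

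**Figure D4:**
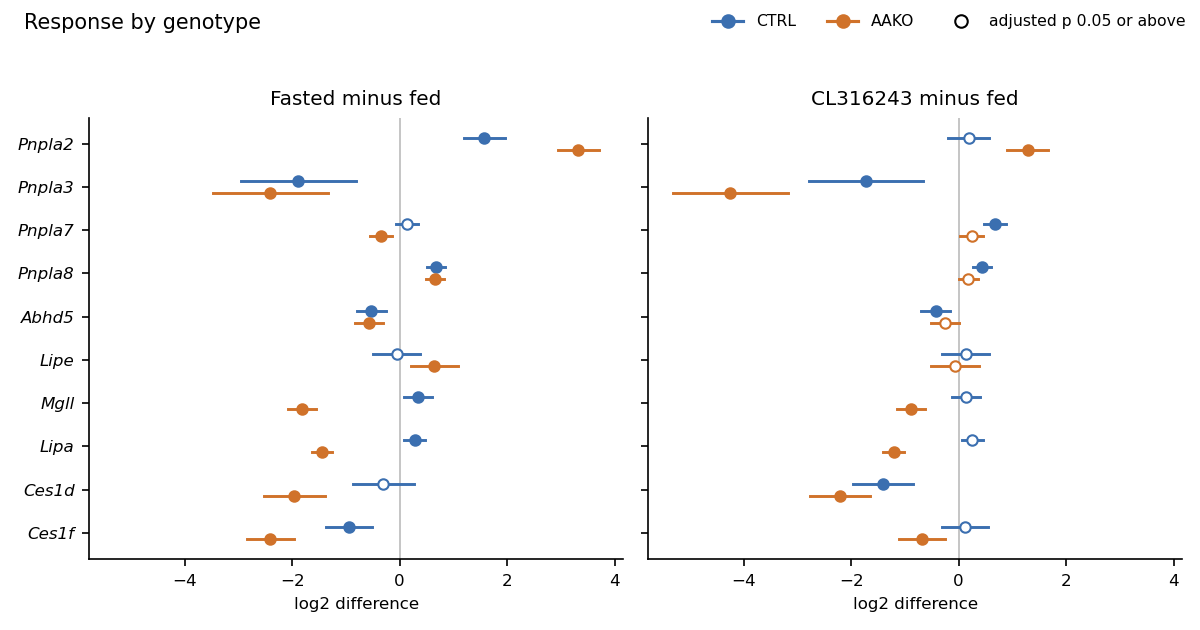
Log2 difference of fasted from fed livers (left) and CL316243 from fed livers (right) for the probe that stood for each gene in CTRL (blue) and AAKO (orange), with 95% intervals; open points have an adjusted p of 0.05 or above. Mgll and Lipa sit at 0.35 and 0.28 in fasted CTRL and at -1.81 and -1.44 in fasted AAKO livers, and Pnpla2 at 1.57 and 3.32.

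Fasting and CL316243 were also compared within a genotype, inside experiment 1. The labels give a gavage for the CL316243 groups only, so food state, agonist and gavage cannot be told apart here. In CTRL livers 5 of the 10 genes differed, beside 37.1% of all genes: Pnpla2 (1.39, SE 0.19, adjusted p = 5.20e-07), Ces1d and Pnpla8 were higher after the fast, and Ces1f and Pnpla7 were higher after CL316243. The Pnpla8 value (0.24, adjusted p = 0.0215) was lost under 5 of 48 alternatives, among them without replicate 2 of fasted CTRL, and probe 2 gave -0.01 (adjusted p = 0.944). In AAKO livers 9 differed, beside 60.0%, with Ces1d the exception (0.25, 95% interval -0.32 to 0.81). Some of the 9 depended on the probe or the processing: the Pnpla3 probes were called in opposite directions, and so were those of Abhd5 (-0.31, adjusted p = 0.0373, on probe 1 and 0.56, adjusted p = 3.62e-04, on probe 2). The Abhd5 probe 1 call was lost with the sign kept under 13 of 48 alternatives, and the median over probes reversed the value to 0.47. The call of Lipa (-0.24, adjusted p = 0.0305) was lost under 9 alternatives and that of Lipe under 2. Pnpla2 was 2.03 higher after the fast (SE 0.19, adjusted p = 6.48e-11). Ces1f (-1.72, SE 0.21, adjusted p = 2.19e-08) and Mgll (-0.92, SE 0.13, adjusted p = 2.24e-07) were lower after the fast than after CL316243.

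Genes around these lipases were described by lists of pathway genes, set beside medians over all genes of -0.03 between fasted genotypes and 0.03 after CL316243. Of all genes, 49.2% were called between fasted genotypes, 24.5% after CL316243, 43.8% with fasting in CTRL and 63.6% with fasting in AAKO livers. Of 14 lipase regulators and lipid droplet coat genes, 5 were higher and 8 lower in fasted AAKO livers, with a median of -0.31, and 0 were higher and 5 lower after CL316243, with a median of -0.37. G0s2, the inhibitor of ATGL, had the lowest value in both, -3.18 (SE 0.63, adjusted p = 8.64e-05) when fasted and -3.83 (SE 0.63, adjusted p = 2.90e-05) after CL316243. It ran from 2.35 to 4.93 in fasted CTRL and from -0.85 to 2.91 in fasted AAKO livers, which overlapped, and from 2.80 to 4.29 against -2.13 to 0.95 after CL316243, which did not. Fabp4, a fatty acid binding protein of adipocytes and macrophages, was highest of the list in fasted AAKO livers (0.96, SE 0.24, adjusted p = 0.00105).

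Of 24 other lipid hydrolases, 2 were higher and 12 lower in fasted AAKO livers (median -0.35), and 0 higher and 9 lower after CL316243 (median -0.29). Ces1e, a neighbour of Ces1d and Ces1f, was lowest when fasted (-1.33, SE 0.23, adjusted p = 1.61e-05), and Pnpla5, a relative of ATGL, was highest (2.26, SE 0.57, adjusted p = 0.00127). Ddhd2, a triacylglycerol and phospholipid hydrolase, was lowest after CL316243 (-1.46, SE 0.17, adjusted p = 9.17e-08). Of 12 lysosomal companions of Lipa, 4 were higher and 2 lower when fasted (median -0.000014) and 2 were higher and 2 lower after CL316243 (median -0.04), and the protease gene Ctsl was higher in AAKO livers in both (1.19, SE 0.12, adjusted p = 8.52e-10, and 0.63, SE 0.12, adjusted p = 1.61e-04). Lamp2 (-0.27) was lowest of that list when fasted and the cholesterol transporter gene Npc1 (-0.91) after CL316243.

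Of 15 genes that use the fatty acids released by lipolysis, 1 was higher and 12 lower when fasted (median -1.26), and 1 higher and 13 lower after CL316243 (median -0.65). Acot1, an acyl-CoA thioesterase, was lowest in both (-2.89, SE 0.37, adjusted p = 1.30e-07, and -3.09, SE 0.38, adjusted p = 3.08e-07), and Acsl4, an acyl-CoA synthetase, was highest (1.41 and 0.47). In CTRL livers 12 of these 15 were higher and 2 lower after the fast, against 4 higher and 9 lower in AAKO livers. Of 8 genes of glycerol and monoacylglycerol handling, 1 was higher and 4 lower in fasted AAKO livers and 0 higher and 3 lower after CL316243. Gpd1, glycerol 3-phosphate dehydrogenase, was lowest in both (-2.16, SE 0.15, adjusted p = 3.41e-13, and -1.08, SE 0.15, adjusted p = 1.60e-06), and Dgat2, which makes triacylglycerol, was highest when fasted (0.25).

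Of 10 fatty acid synthesis genes, 3 were higher and 2 lower in fasted AAKO livers (median 0.31), with Thrsp highest (2.19, SE 0.40, adjusted p = 2.82e-05) and Me1 lowest (-0.98, SE 0.19, adjusted p = 8.83e-05). After CL316243 0 were higher and 6 lower (median -0.75), with Acly lowest (-1.53, SE 0.20, adjusted p = 7.23e-07). In fed livers no gene of the 6 lists was called between the genotypes.

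**Figure D5:**
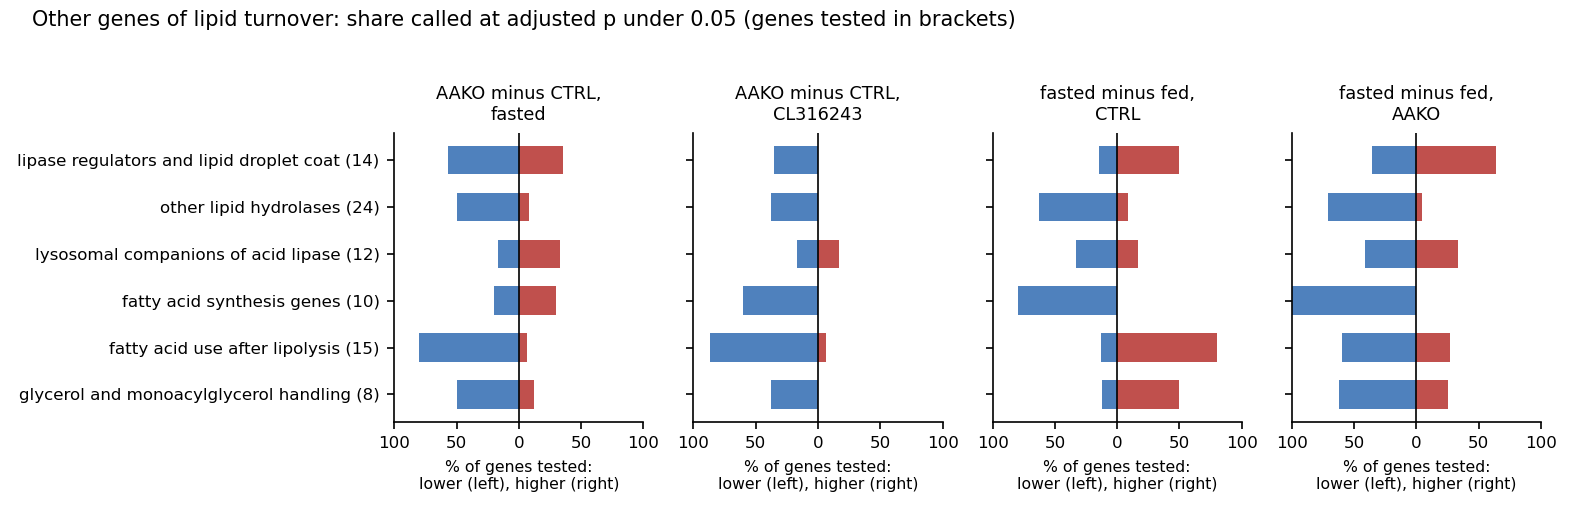
Share of the tested genes of each list, in percent, that were lower (blue, left) or higher (red, right) at an adjusted p under 0.05 in 4 comparisons, with the number of genes tested in brackets. Fatty acid use genes are mostly higher with fasting in CTRL (12 of 15) and mostly lower between fasted genotypes (12 of 15).

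For each gene called in a genotype comparison, the 3 genes with the highest Pearson correlation over the 36 arrays were listed, as a description, since all points share the 6 groups. Pnpla2 lay nearest to Tfip11 (r = 0.975), Got1 (r = 0.973) and Mul1 (r = 0.971), and within the wash batches these ranged from 0.960 to 0.983. Mgll lay nearest to Entpd5 (r = 0.960), Dhrs4 (r = 0.959) and Cpox (r = 0.958), and Lipa to Tjp3 (r = 0.954), Septin9 (r = 0.942) and, like Mgll, Entpd5 (r = 0.936). Ces1f lay nearest to Sec14l2 (r = 0.948), Sucnr1 (r = 0.946) and Ccdc107 (r = 0.936), and Ces1d to Spag4 (r = 0.863), Nfic (r = 0.856) and Agmo (r = 0.856). Pnpla8 lay nearest to Fbxo8 (r = 0.933), Ppp2r2d (r = 0.932) and Eif1 (r = 0.931), Pnpla7 to Oas1c (r = 0.882), Atrn (r = 0.878) and Irgm2 (r = 0.876), and Pnpla3 to Il11ra1 (r = 0.802), Cry1 (r = 0.774) and Rangrf (r = 0.759). For Il11ra1 the r with Pnpla3 was 0.876 within wash batch 1 and 0.689 within wash batch 2.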

How the data were processed

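Liver RNA was read on 36 Agilent arrays (design 074809). Per the file headers, the deposited intensity values came from Agilent Feature Extraction 10.10.1.1, the processed intensity had a fitted background subtracted, and probes were placed on mm9. The authors also deposited log2 values of 36898 probes; each column matched its own array best (lowest r 0.99957), the sorted values were identical among arrays of a group, and how that table was made is not given in the sources used here. Of the spots 0.127% were masked as outliers and 0 were saturated.

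The main value was log2 processed intensity minus the log2 of the array's 75th percentile over 56605 probes, after averaging spots of a probe. Each gene was represented by its probe of highest mean, tested if well above background on at least 5 of 6 arrays of a group. Of the probes, 32994 were named by RefSeq accession through a GRCm38.p6 table, and the rest kept the file's name. Group means and wash batch were fitted to all arrays with limma 3.58.1 in R 4.3.3, tests were two-sided, and other probes of a member were fitted in the same way over all probes. The 95% intervals used 29 residual degrees of freedom. The script was tested on simulated data with known changes. Genes outside the 10 were named as the highest and lowest called of each list between fasted and CL316243 genotypes, plus the 3 nearest patterns. The genes and lists were chosen with earlier results of these data known. Alternatives covered background, scaling, the authors' table, the filter, wash batch, slide, samples fitted, pairing, probe choice and each array left out. Over the 9 comparisons of groups, deviations of same-numbered replicates had a correlation over 0.1 in 0 to 3 of 6 pairs, so they were not treated as pairs. In the fed comparison of genotypes it was 3 of 6 pairs, with a highest r of 0.36, and 3 arrays matched their own number best. Array number and signal over background limit the precision.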

Additional observations from a re-analysis of the deposited data

Results flagged for a closer look

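Within the 60 sets of 6 arrays (10 genes in 6 groups), 6 held an array that stood far from the rest by Dixon's criterion, which chance exceeds in about 1 in 20 groups. For Ces1d these were replicate 6 of fed AAKO (5.02), replicate 5 of fasted CTRL (4.26) and replicate 5 of CL316243 CTRL (3.52), each the lowest of its group. For Lipa it was replicate 4 of fed AAKO, the highest at 3.80, and for Pnpla2 replicate 4 of fed CTRL, the lowest at 4.10. For Pnpla3 it was replicate 4 of CL316243 AAKO, the highest at -2.97.

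Responses differed between the genotypes by the test of the difference itself (limma, log2, AAKO minus CTRL). Those against fed mice span experiments 1 and 2. For fasting the values were 1.75 for Pnpla2, -2.16 for Mgll, -1.72 for Lipa, -1.66 for Ces1d, -1.46 for Ces1f and -0.48 for Pnpla7. For CL316243 they were 1.103 for Pnpla2, -1.03 for Mgll, -1.45 for Lipa, -2.53 for Pnpla3 and -0.44 for Pnpla7. The genotype difference when fasted, less that after CL316243, was -1.13 for Mgll, 0.90 for Lipe and 2.01 for Pnpla3. On Pnpla3 probe 2 the value was 0.14 for CL316243 and -0.67 for that last difference, neither called.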

How the results depend on the processing

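Of 288 recomputed counts that left out no array, 257 stayed within 1.5 times; of 840 recomputed values of called members, 763 kept direction and call, 72 lost the call and 5 reversed. The cause was not tested, beyond the fewer arrays within a wash batch. Within wash batch 1 the genes called were 1 for fed genotypes, 2977 for genotype after CL316243, 5997 for fasting in CTRL, 2100 and 4684 for CL316243 in CTRL and AAKO, 4551 for fasting against CL316243 in CTRL, and 5101, 458 and 4744 for the interactions with fasting, with CL316243 and between them. Within wash batch 2 they were 0 for fed, 7821 for fasted and 1510 for CL316243 genotypes, 1623 and 2287 for CL316243 in CTRL and AAKO, and 3132, 480 and 3053 for the interactions. With only the groups compared in the fit, 3 genes were called in fed mice.

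Members called numbered 1 in fed mice with normexp or with the authors' table. Within wash batch 2 they were 3 for genotype after CL316243, 2 for fasting in CTRL, 2 for CL316243 in CTRL, 5 for fasting against CL316243 in AAKO, 2 for the interaction with CL316243 and 1 for that between stimuli. Within wash batch 1 they were 3 for fasting against CL316243 in CTRL, 1 for the interaction with CL316243 and 1 for that between stimuli, which quantile normalization raised to 5. The median over probes gave 3 for CL316243 in CTRL. It also reversed Abhd5, to 0.38 and 0.52 for fasting in CTRL and AAKO, 0.063 for CL316243 in CTRL and 0.47 for fasting against CL316243 in AAKO, and Pnpla3 in that last comparison to -0.027.

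Leaving out each array in turn gave 7 to 33 genes and 0 to 1 members in fed mice, 3 to 5 members for the interaction with CL316243 and 1 to 6 for that between stimuli. With the replicate block, 20 genes and 0 members were called in fed mice, and no other count moved by over 1.5 times. Higher calls made up 52.7% of calls for genotype after CL316243 but 42.3% in the authors' table, with 45.1% against 56.2% for fasting in CTRL, 48.0% against 59.8% and 43.3% against 58.1% for fasting against CL316243 in CTRL and AAKO (32.7% with normexp in AAKO), 57.2% against 44.1% and 42.0% against 54.9% for the last 2 interactions, and 52.6% against 66.7% in fed mice. Levels near background, as for Pnpla3, are limited by the array.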
